A study of Mus musculus with 1 sample.

Results

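Genes of the Notch pathway were followed through the cell classes of the P0 (day of birth) wild-type (WT) mouse cerebral cortex. The 10 genes were the receptors Notch1, Notch2 and Notch3, the ligands Dll1, Dll3, Jag1 and Jag2, and the modifiers Lfng, Mfng and Numb. They were taken by gene symbol from the 51912 genes listed in the table of unique molecular identifier (UMI) counts, and a UMI was found for all 10. The cortex came from C57BL/6 mice of WT genotype, with no allele or treatment named in the labels. It was digested with papain and captured with the 10x Chromium 3′ chemistry for sc-RNA Seq. The study set this WT library beside mice in which human SERPINA3 was switched on in Nestin-positive cells, and the latter were not analysed here.

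Notch receptors are cleaved after a ligand on a neighbouring cell binds them, and the freed intracellular part joins Rbpj in the nucleus to switch on repressors of the Hes and Hey families. In the developing cortex these repressors hold back proneural factors such as Neurog2, which themselves switch on ligand genes, and this exchange between cells is known for keeping radial glia undifferentiated while their neighbours become neurons. Fringe enzymes such as Lfng and Mfng add sugars to the receptors, and Numb acts inside the cell against them.

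Promoters are shown first for the members Dll1, Dll3 and Lfng, each with a match to a sequence marked below. Across classes the levels of Dll1 and Dll3 went together. Among the members, those of Lfng were most like those of the receptor Notch2. A promoter was found in RefSeq (GRCm38.p6) for 9 of the 10 members, 12 promoters in all, and none was matched for Mfng. Each runs from 250 bases before to 50 bases after the gene's start. Capitals mark CAGCTG, an E-box of the kind that proneural factors can bind, and GTGGGAA, a sequence that Rbpj can bind. The stretch of Dll1 is the second of 2 promoters (chr17:15376883-15377182, minus strand), that of Dll3 is chr7:28301736-28302035 on the minus strand, and that of Lfng is chr5:140607091-140607390 on the plus strand.
Dll1: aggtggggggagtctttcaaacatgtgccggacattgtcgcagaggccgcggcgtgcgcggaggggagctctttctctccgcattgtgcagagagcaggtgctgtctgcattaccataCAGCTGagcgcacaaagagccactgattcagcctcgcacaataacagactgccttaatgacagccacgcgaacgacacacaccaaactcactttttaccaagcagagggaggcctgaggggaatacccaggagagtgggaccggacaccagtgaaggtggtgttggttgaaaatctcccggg
Dll3: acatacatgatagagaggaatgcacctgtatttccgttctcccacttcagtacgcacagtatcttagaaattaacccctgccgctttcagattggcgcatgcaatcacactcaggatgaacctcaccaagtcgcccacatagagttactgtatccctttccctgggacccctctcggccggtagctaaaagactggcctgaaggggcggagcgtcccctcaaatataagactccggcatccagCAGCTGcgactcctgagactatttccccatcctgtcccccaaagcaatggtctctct
Lfng: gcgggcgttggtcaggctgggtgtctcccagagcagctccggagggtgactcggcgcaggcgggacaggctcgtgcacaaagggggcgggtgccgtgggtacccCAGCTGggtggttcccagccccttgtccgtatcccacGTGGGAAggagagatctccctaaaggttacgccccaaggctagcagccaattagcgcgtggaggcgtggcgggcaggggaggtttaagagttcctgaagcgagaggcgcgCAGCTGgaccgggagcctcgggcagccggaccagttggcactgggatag
Searched on both strands, CAGCTG was present in 4 of the 12 promoters, those of Dll1 (1 of 2), Dll3, Jag1 and Lfng, against 16.3% of the 32851 RefSeq promoters of the same length. GTGGGAA was present in the Lfng promoter alone, against 6.38% of all promoters. Such matches describe letters only, and binding was not measured.

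Depth and classes were as follows. The library held 90346034 UMIs in 11062 cells, and as it was the only library, no cell barcodes could be shared and no value has a replicate error. Intervals in brackets are 95% intervals and cover counting error only. The 8254 cells with at least 2000 UMIs and under 10% mitochondrial UMIs (median 9015 UMIs) were gated by marker UMIs, none of them from a member gene, into 13 classes holding 7697 cells. Levels are given as CPM, the UMIs of a gene summed over the cells of a class, per 1000000 UMIs of that class without mitochondrial genes. The levels of the gating markers describe the classes. Fabp7 was at 16589 CPM in radial glia or astrocytes and 26.9 CPM in excitatory neurons, Pdgfra at 723 CPM in oligodendrocyte precursors and 0 in the Olig-positive glial progenitors, which were gated without it, and Reln at 3406 CPM in Cajal-Retzius cells. Scrublet marked 6.35% of kept cells as doublets, and these were kept.

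Receptor transcripts were concentrated in progenitors and glia. The 4 classes of radial glia or astrocytes, dividing progenitors, Olig-positive glial progenitors and oligodendrocyte precursors made up 718 cells or 8.70% of the kept cells and 7.93% of their UMIs. They held 74.6% of the Notch1 UMIs, 83.1% of those of Notch2 and 67.6% of those of Notch3. Excitatory neurons, with 79.5% of all kept UMIs, held 5.27%, 11.3% and 11.3% of them.

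Notch1, the best studied receptor of cortical progenitors, stood at 368 CPM (343 to 395) in radial glia or astrocytes, 306 CPM (266 to 350.0) in dividing progenitors and 305 CPM (282 to 329.6) in Olig-positive glial progenitors. Dividing progenitors could not be separated from either of the other classes, as their interval overlapped both. Endothelial cells followed at 248 CPM, mural cells at 244 CPM, dividing Eomes-positive cells at 220.3 CPM (174 to 276), oligodendrocyte precursors at 196 CPM and dividing inhibitory-lineage cells at 151 CPM. Newborn excitatory neurons, gated by Eomes, still held 83.2 CPM (69.9 to 98.3), and 82 of the 192 had a UMI. As Eomes also marks intermediate progenitors, this class can hold such cells as well, here and below. The other neuron classes gated by the inhibitory and excitatory lists were far lower, at 9.34 CPM (5.85 to 14.1) in inhibitory neurons and 2.10 CPM (1.77 to 2.48) in excitatory neurons. The intervals of radial glia or astrocytes, dividing Eomes-positive cells, newborn neurons and excitatory neurons, in falling order, did not overlap, while that of dividing progenitors overlapped those of the first 2.

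Notch2 had a narrower range of classes than Notch1. It stood at 312 CPM (289 to 336) in radial glia or astrocytes, 115 CPM (91.0 to 143) in dividing progenitors and 69.7 CPM (58.9 to 81.9) in Olig-positive glial progenitors, an order in which no intervals overlapped. By cells, the dividing and Olig-positive progenitors were not separated. A UMI was found in 38.8% (27.1% to 51.5%) and 41.2% (34.6% to 48.1%) of them, with up to 10 UMIs in 1 dividing progenitor. In every other class it was at or below 16.9 CPM, the value of 2 UMIs in the 15 microglia. Oligodendrocyte precursors held 10.3 CPM (6.00 to 16.5) and dividing Eomes-positive cells 11.6 CPM (3.16 to 29.7). Endothelial cells, which held 130 UMIs of Notch1, held 1 UMI of Notch2.

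Notch3, the receptor known for its role in the mural cells of vessels, was highest in the 20 mural cells at 238 CPM (167 to 328), from 37 UMIs in 13 cells. Radial glia or astrocytes came next at 72.6 CPM (61.7 to 84.9), and 102 of the 264 had a UMI. The mural markers Kcnj8, Abcc9 and Vtn were at 0 in these radial glia or astrocytes and the 7 mural markers summed to 136 CPM there, of which Pdgfrb gave 120.4 CPM, against 12462 CPM in mural cells. Endothelial cells held 47.7 CPM (30.9 to 70.5), from 25 UMIs in 6 of 25 cells, beside a summed mural level of 2137 CPM, whose part in this value was not tested. No Notch3 UMI was found in dividing Eomes-positive cells, dividing inhibitory-lineage cells, Cajal-Retzius cells or microglia, with upper bounds of 10.7, 8.07, 4.76 and 31.3 CPM.

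**Figure D1:**
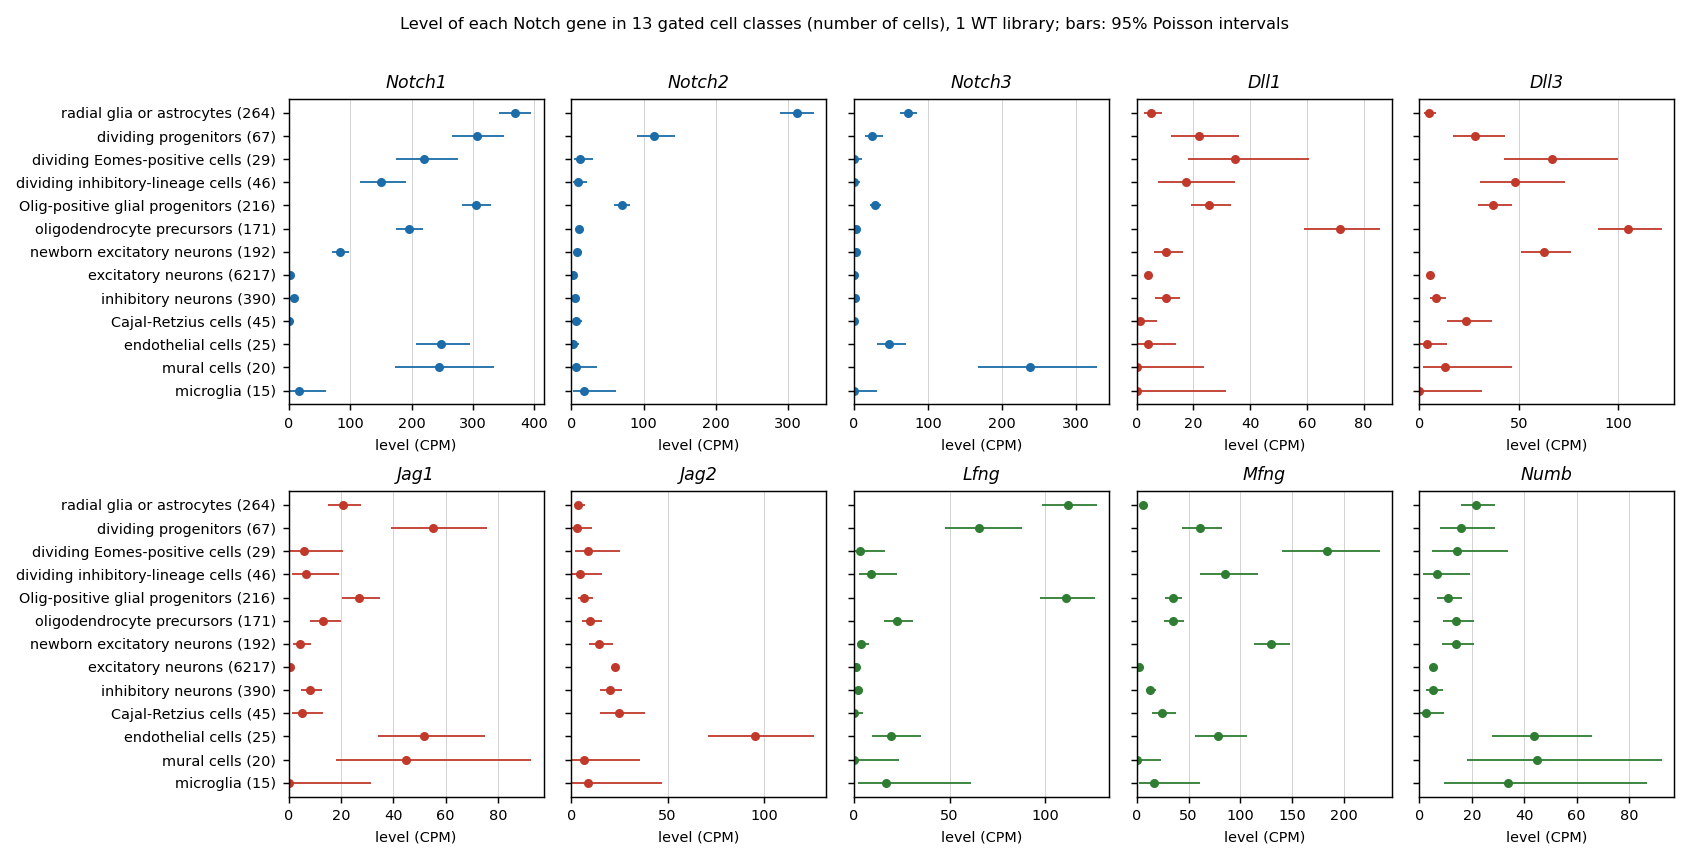
Levels of the 10 Notch genes in the 13 gated classes of the WT library. Each panel is a gene, the x axis is CPM on a linear scale that differs between panels, points are class levels, bars are 95% Poisson intervals and numbers in brackets are cells. Notch1 and Notch2 peak in radial glia or astrocytes at 368 and 312 CPM, Dll1 and Dll3 in oligodendrocyte precursors at 71.5 and 105 CPM, and Mfng in dividing Eomes-positive cells at 183 CPM.

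Among the ligands, Dll1 and Dll3 had their highest levels in oligodendrocyte precursors, although for both genes the interval of dividing Eomes-positive cells overlapped, and they were low in radial glia. Dll1, the ligand that activates receptors on neighbours, stood at 71.5 CPM (59.1 to 85.6) in oligodendrocyte precursors, 66 of whose 171 cells had a UMI. Dividing Eomes-positive cells held 34.8 CPM (18.0 to 60.8), Olig-positive glial progenitors 25.4 CPM (19.1 to 33.2), dividing progenitors 21.8 CPM (12.2 to 36.0) and dividing inhibitory-lineage cells 17.5 CPM (7.56 to 34.5). These 4 classes overlapped one another, and the first of them also overlapped oligodendrocyte precursors. Radial glia or astrocytes held 5.06 CPM (2.52 to 9.05), which overlapped the 4.12 CPM (3.64 to 4.63) of excitatory neurons.

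Dll3, a divergent relative of Dll1 that acts mainly within the cell, had the same top class at 105 CPM (89.7 to 122), and 91 of the 171 oligodendrocyte precursors had a UMI. It differed from Dll1 in newborn excitatory neurons, where Dll3 was at 62.7 CPM (51.2 to 76.0), level with the dividing Eomes-positive cells at 66.7 CPM (42.3 to 100). Dll1 was at 10.3 CPM (5.97 to 16.4) in the newborn neurons. Between these Eomes-gated classes Dll1 was 3.39-fold higher (1.48 to 7.54) in the dividing cells, while the ratio for Dll3 was 1.06 (0.645 to 1.68). Cajal-Retzius cells held 23.2 CPM (13.8 to 36.7) of Dll3 and 1.29 CPM of Dll1, from 1 UMI.

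Jag1 followed another order. It stood at 55.3 CPM (39.1 to 75.9) in dividing progenitors, 51.6 CPM (34.0 to 75.0) in endothelial cells and 45.0 CPM (18.1 to 92.7) in mural cells, which overlapped. Olig-positive glial progenitors held 26.8 CPM (20.3 to 34.8), radial glia or astrocytes 20.7 CPM (15.1 to 27.7) and oligodendrocyte precursors 13.3 CPM (8.35 to 20.2). Within Olig-positive glial progenitors the 95 dividing cells had 41.7 CPM against 11.5 CPM in the 121 others, a ratio of 3.63 (1.89 to 7.53). Within oligodendrocyte precursors the ratio was 3.56 (1.39 to 9.80), from 14 and 8 UMIs. Jag1 was thus higher in dividing cells in both glial classes, whereas Dll1 and Dll3 were lower in the dividing oligodendrocyte precursors, with ratios of 0.575 (0.357 to 0.897) and 0.462 (0.304 to 0.682). In Olig-positive glial progenitors the ratios of Dll1 and Dll3 were 0.665 (0.368 to 1.18) and 0.694 (0.430 to 1.11), with intervals that included 1. Dll3 also moved with depth in oligodendrocyte precursors, at 0.705 (0.515 to 0.972) for cells above over those at or below the median UMI count. For Dll1 this ratio was 0.715 (0.487 to 1.06), and the part of depth in the ratios of dividing cells was not tested.

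Jag2 was low in radial glia or astrocytes and highest in endothelium. Excitatory neurons held 1510 of its 1779 UMIs in kept cells (84.9%), near their 79.5% of all kept UMIs. Jag2 was at 23.1 CPM in the whole library and at 22.7 CPM (21.6 to 23.9) in excitatory neurons. Inhibitory neurons at 19.9 CPM (14.7 to 26.5) and Cajal-Retzius cells at 24.5 CPM (14.8 to 38.3) overlapped this value. The 25 endothelial cells were highest at 95.5 CPM (70.9 to 126), and 20 of them had a UMI. Radial glia or astrocytes were at 3.68 CPM (1.59 to 7.24). In excitatory neurons Jag2 varied little with depth, at 22.9 CPM in the cells above and 22.3 CPM in those at or below the median UMI count, and its upper to deep layer ratio was 1.04 (0.918 to 1.18). Other members moved with depth in this class, with ratios of the deeper to the shallower cells of 0.545 for Notch1, 0.560 for Notch2, 0.627 for Dll1, 0.587 for Dll3 and 0.687 for Numb, all with intervals below 1. In radial glia or astrocytes the ratio was 0.208 for Mfng (0.0476 to 0.721), 0.380 for Jag1 (0.199 to 0.713) and 0.701 for Notch1 (0.608 to 0.809). In Olig-positive glial progenitors it was 0.422 for Dll1 (0.238 to 0.747), 0.490 for Dll3 (0.308 to 0.783) and 0.607 for Lfng (0.466 to 0.794). The part of depth in the levels of these genes was not tested.

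The 2 fringe genes differed in opposite directions between radial glia and the Eomes-gated classes. Lfng stood at 112 CPM (98.1 to 127) in radial glia or astrocytes, 111 CPM (97.4 to 126) in Olig-positive glial progenitors and 65.5 CPM (47.8 to 87.7) in dividing progenitors. It was at 3.62 CPM (1.33 to 7.88) in newborn excitatory neurons and at 2.90 CPM, from 1 UMI, in dividing Eomes-positive cells. Mfng was highest in dividing Eomes-positive cells at 183 CPM (140.3 to 234) and newborn excitatory neurons at 129.7 CPM (113 to 148), and 24 of 29 and 115 of 192 cells had a UMI, whereas radial glia or astrocytes held 6.43 CPM (3.52 to 10.8). Both fringe genes were low in excitatory neurons, at 0.946 CPM for Lfng and 1.77 CPM for Mfng, and dividing progenitors, at 61.1 CPM of Mfng (44.1 to 82.6), held both. Between newborn neurons and radial glia or astrocytes the ratio was 20.2 (11.8 to 37.5) for Mfng and 0.0324 (0.0118 to 0.0716) for Lfng. Within newborn neurons the ratio of the deeper to the shallower cells was 0.584 (0.443 to 0.771) for Mfng. For Lfng it was 0.105 (0.00223 to 0.942), from 1 and 5 UMIs, and the part of depth in the ratios between classes was not tested.

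Mfng was also higher in the excitatory neurons that held Sstr2. The class as a whole was at 1.77 CPM, and the 357 excitatory neurons with at least 2 UMIs of Sstr2, a somatostatin receptor gene of migrating young neurons, held 12.1 CPM against 1.02 CPM in the 5171 with none, a ratio of 11.9 (7.69 to 18.1). Dll3 followed with 12.1 against 4.69 CPM (ratio 2.58, 1.80 to 3.62). Upper-layer neurons held 10.3 times (3.90 to 38.4) the Mfng level of deep-layer neurons, from 106 and 4 UMIs. The upper-layer markers summed to 1906 CPM in upper-layer neurons, 2119 CPM in newborn excitatory neurons and 1893 CPM in dividing Eomes-positive cells. They were thus not particular to a layer, and the part of young neurons in this ratio was not tested. Mfng moved with depth as well, at 0.711 CPM above and 4.22 CPM at or below the median UMI count of excitatory neurons, and the part of depth in these ratios was not tested.

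Numb, which segregates unequally at some progenitor divisions, varied least of the modifiers among neural classes. Its levels lay between 2.58 CPM in Cajal-Retzius cells and 21.6 CPM (15.9 to 28.7) in radial glia or astrocytes, and most neighbouring intervals overlapped. The 3 values above these were 45.0 CPM (18.1 to 92.7) in mural cells, 43.9 CPM (27.8 to 65.9) in endothelial cells and 33.9 CPM (9.23 to 86.8) in microglia, all with intervals that overlapped that of radial glia or astrocytes. Excitatory neurons held 5.05 CPM (4.52 to 5.62), and inhibitory neurons 5.09 CPM (2.63 to 8.89).

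Low levels in neurons were set beside genes that neurons should lack, since free RNA in droplets gives UMIs in cells that do not express a gene. In excitatory neurons Fabp7 stood at 3.63%, Aldoc at 4.04% and Cldn5 at 1.76% of their levels in the whole library, 3 genes of glia or endothelium. All 3 were gating markers, so the gates helped to set these low shares. Hes5, a gene of progenitors and glia that was in no gate, stood at 4.82%. Notch1 was at 6.69%, close to these, followed by Lfng at 11.9%, Notch2 at 14.2% and Notch3 at 14.4%. Jag1 was at 19.0% and Mfng at 20%. Dll3 at 51.0%, Dll1 at 59.7%, Numb at 78.5% and Jag2 at 98.1% lay well above Hes5 and the 3 gating markers. A gene spread evenly over cells would also stand near its library level, so these shares cannot tell free RNA from expression. The cells left out by the filter held 73.1 CPM of Jag2, 12.2 of Dll1, 11.2 of Dll3 and 4.17 of Numb. Excitatory neurons held 22.7, 4.12, 5.20 and 5.05 CPM, and the part of free RNA in these levels was not tested.

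To compare classes over the whole gene set, genes with at least 20 UMIs in both classes together were compared, and a gene was counted when it differed by at least 2-fold. Of the 10 members, which all passed, 7 were higher in radial glia or astrocytes than in excitatory neurons (21.3% of 17780 genes) and 1, Jag2, was lower (16.3%), at a ratio of 0.162 that became 0.0494 without doublets. Notch1 was 175-fold higher (146 to 211), Notch2 165-fold (136 to 201), Notch3 121-fold (84.9 to 176), Lfng 118-fold (89.1 to 158) and Jag1 30.6-fold (19.8 to 47.3). Dll1 and Dll3 did not separate these classes, with ratios of 1.23 (0.606 to 2.23) and 0.884 (0.420 to 1.65). The median of the members was 3.52 on the log2 scale, against 0.00 over all genes compared.

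In dividing progenitors 9 of 10 members were higher than in excitatory neurons (21.9% of genes) and Jag2 was lower (14.1%). Newborn excitatory neurons also had 9 members higher (14.0% of genes) and 0 lower (9.93%) than excitatory neurons. In these newborn neurons the largest ratios were those of Mfng at 73.1 (58.2 to 92.4), Notch1 at 39.6 (31.1 to 50.4) and Dll3 at 12.1 (9.60 to 15.1). Against radial glia or astrocytes, the newborn neurons had 4 members higher (10.8% of genes), which were Dll1, Dll3, Jag2 and Mfng, and 5 lower (15.5%), which were the 3 receptors, Jag1 and Lfng. All 3 receptors were thus lower in newborn neurons and 3 of the 4 ligands were higher, although the Dll1 ratio of 2.03 (0.896 to 4.79) was within its counting error of 1.

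Oligodendrocyte precursors were compared with radial glia or astrocytes as the other main glial class. Here 4 members were higher (10.3% of 11623 genes), Dll3 by 22.8-fold (12.1 to 48.4), Dll1 by 14.1-fold (7.62 to 29.1), Mfng by 5.46-fold (3.01 to 10.6) and Jag2 by 2.64-fold (1.06 to 7.11), the last from 16 and 8 UMIs. The 8 excitatory neuron markers, all detected in both classes, also moved this way, at a summed 545 CPM against 352 CPM, and their part in the Jag2 ratio was not tested. A further 3 were lower (12.4%), with ratios of 0.0330 for Notch2 (0.0191 to 0.0532), 0.0417 for Notch3 (0.0134 to 0.0994) and 0.201 for Lfng (0.138 to 0.284). Notch1, at a ratio of 0.531 (0.465 to 0.605), was lower by less than 2-fold. Oligodendrocyte precursors thus held Notch1 at 196 CPM with Notch2 and Notch3 at or below 10.3 CPM.

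Against oligodendrocyte precursors, Olig-positive glial progenitors without Pdgfra had 4 members higher (7.35% of genes), from Notch3 at 9.33-fold (3.79 to 29.8) to Jag1 at 2.02-fold (1.21 to 3.46), and 2 lower (6.72%), which were Dll1 at 0.356 (0.253 to 0.495) and Dll3 at 0.355 (0.269 to 0.466). Inhibitory neurons had 7 members higher than excitatory neurons (11.2% of genes) and 0 lower (7.47%), led by Jag1 at 11.9-fold (6.59 to 20.8) and Mfng at 7.42-fold (4.83 to 11.1). For Notch3 and Lfng in inhibitory neurons the intervals included 1. Inhibitory neurons were also shallower, at a median of 5228 UMIs against 9681 in excitatory neurons. Within excitatory neurons Notch1, Notch2, Dll1 and Mfng were lower in the deeper cells, as given above. The depth ratios of Notch3, Jag1 and Lfng there had intervals that included 1. The part of depth in the ratios of inhibitory neurons was not tested. Dividing Eomes-positive cells had 2 of the 6 members compared higher than newborn neurons, Notch1 and Dll1 (6.04% of genes), and 0 lower (10.6%). Upper-layer neurons had Notch2 and Mfng higher than deep-layer neurons (6.49% of genes), and 0 members were lower (8.15%).

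**Figure D2:**
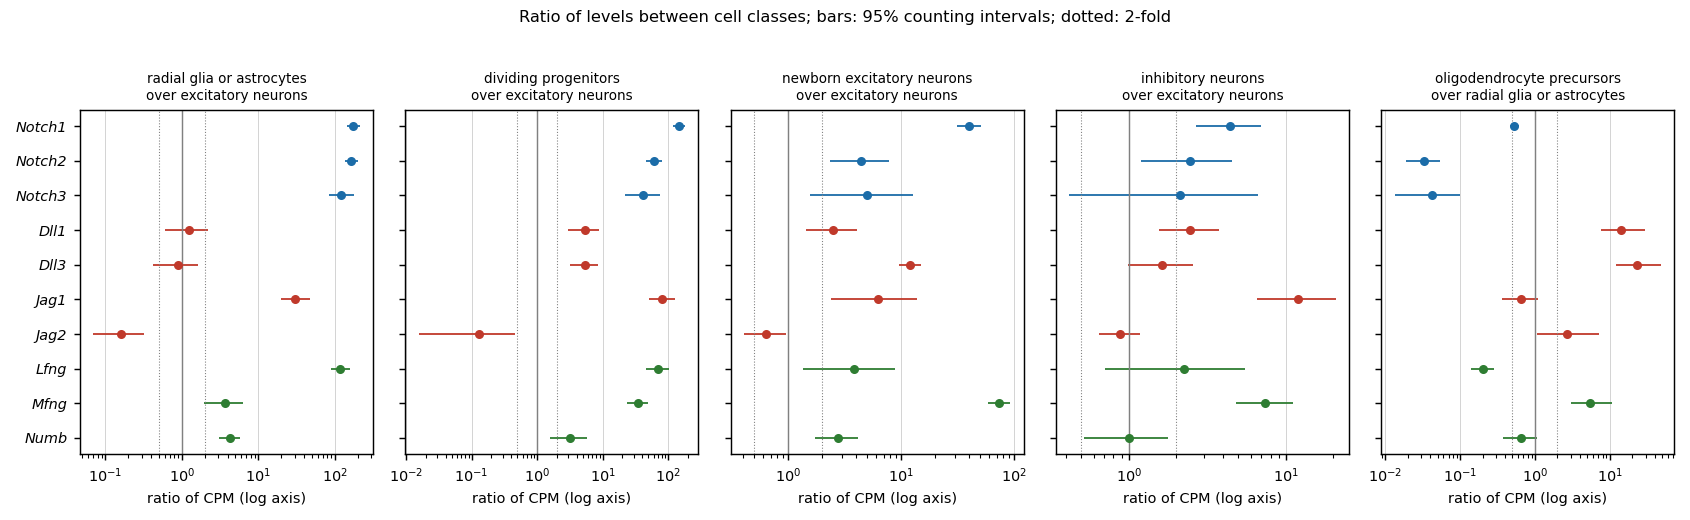
Ratios of CPM between classes for the 10 Notch genes in 5 comparisons, on log axes that differ between panels. Points are ratios, bars are 95% counting intervals, the solid line marks equal levels and the dotted lines 2-fold. The receptors and Lfng lie furthest to the right in radial glia or astrocytes over excitatory neurons (Notch1 at 175), and Dll1 and Dll3 in oligodendrocyte precursors over radial glia or astrocytes (14.1 and 22.8).

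The other genes of the pathway, 44 in all, included the known targets. Of these, 15 of the 42 compared were at least 2-fold higher (21.3% of all genes) and 4 lower (16.3%) in radial glia or astrocytes than in excitatory neurons, among them the repressors Hes1 at 63.0-fold (53.0 to 75.1) and Hes5 at 297-fold (254 to 351) and Nrarp, a feedback inhibitor, at 98.2-fold (80.4 to 121). Heyl, with 38 UMIs in radial glia or astrocytes and 0 in excitatory neurons, was at least 387-fold higher against a floor of 3 UMIs over the class. Rbpj, the nuclear partner of the receptors, was 2.08-fold higher (1.76 to 2.44), and Mib1, which lets ligands signal, had a ratio of 1.07 (0.892 to 1.27). In oligodendrocyte precursors against radial glia or astrocytes, 4 of 37 were higher (10.3% of all genes) and 8 lower (12.4%), so that the count of those higher was near the background. The 8 included Hes1 and Hes5, each at a ratio of 0.234 with upper bounds of 0.301 and 0.265. In newborn excitatory neurons against excitatory neurons, 9 of 41 were higher (14.0% of all genes), led by Neurog2 at 62.2-fold (51.7 to 75.1), and 3 were lower (9.93%). Numbl, a relative of Numb, was at 1.29 (1.03 to 1.58) and Dner, a transmembrane protein with Notch-like repeats, at 0.642 (0.480 to 0.841). Neurog1 had no UMI in the library.

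In vessels, the endothelial cells held Dll4, their known ligand, at 113 CPM (85.8 to 145) and the receptor Notch4 at 45.8 CPM (29.4 to 68.2), beside Jag2 and Notch1 above. Mural cells held 0 UMIs of Dll4, with an upper bound of 23.7 CPM, and Dlk1, a related non-canonical ligand, at 154 CPM (98.8 to 229.5). Transcripts of 5 red-cell genes summed to 22862 CPM in the endothelial cells, 1703 CPM in radial glia or astrocytes and 0 in mural cells, and their part in these levels was not tested.

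To ask whether ligand and receptor transcripts occurred in the same cells, each kept cell was thinned to 2000 UMIs, so that depth did not differ between classes and no kept cell was too shallow. A receptor UMI was then found in 75.4% of radial glia or astrocytes and a ligand UMI in 6.82%. In oligodendrocyte precursors the shares were 29.8% and 36.8%, and in newborn excitatory neurons 14.6% and 15.1%. Excitatory neurons had a receptor UMI in 1.06% and a ligand UMI in 6.35%, mostly of Jag2. Against radial glia or astrocytes, the receptor share was lower and the ligand share higher in both oligodendrocyte precursors and newborn neurons.

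Both in the same cell were found in 12.9% of oligodendrocyte precursors (22 of 171 cells, 8.24% to 18.8%). The share was 12.0% in the 25 endothelial cells (2.55% to 31.2%), 10.3% in the 29 dividing Eomes-positive cells (2.19% to 27.4%), 8.96% in dividing progenitors (3.36% to 18.5%), 7.41% in Olig-positive glial progenitors (4.29% to 11.8%), 4.92% in radial glia or astrocytes (2.65% to 8.27%) and 3.12% in newborn neurons. In excitatory neurons it was 0.0965%, which was 6 of 6217 cells, and in microglia 0 of 15 cells. Scrublet marked 12.9% of oligodendrocyte precursors as doublets, and without all marked cells their share was 14.1%. These glial and progenitor shares had no fixed order, since at 1000 UMIs oligodendrocyte precursors were at 2.34%, Olig-positive glial progenitors at 2.78% and dividing progenitors at 4.48%. Without thinning, the share was 55.6% in oligodendrocyte precursors, 20.1% in radial glia or astrocytes and 1.69% in excitatory neurons.

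The product of the separate ligand and receptor shares was 11.0% in oligodendrocyte precursors, 5.14% in radial glia or astrocytes, 8.91% in dividing progenitors and 7.64% in Olig-positive glial progenitors. It was 2.20% in newborn neurons and 0.0674% in excitatory neurons, below the shares found there but within their intervals (1.16% to 6.68% and 0.0354% to 0.210%). Without thinning, the share lay above the product in newborn neurons, at 23.4% against 18.5% (within the interval of 17.6% to 30.1%), and in excitatory neurons, at 1.69% (1.38% to 2.04%) against 1.32%. Unthinned cells of a class differ in depth, and deeper cells more often hold a UMI of both kinds. The unthinned comparison therefore cannot show whether ligands and receptors go together, and the part of depth in it was not tested. Pair by pair on thinned counts, 16 of the 40 oligodendrocyte precursors with a Dll3 UMI also had a Notch1 UMI (40.0%, 24.9% to 56.7%), against 32 of the 131 without (24.4%, 17.3% to 32.7%). For Dll1 the values were 10 of 29 (34.5%, 17.9% to 54.3%) against 38 of 142 (26.8%, 19.7% to 34.8%). The intervals of the cells with and without the ligand overlapped in both cases, although for Dll3 the share without it lay just below the interval of the share with it.

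**Figure D3:**
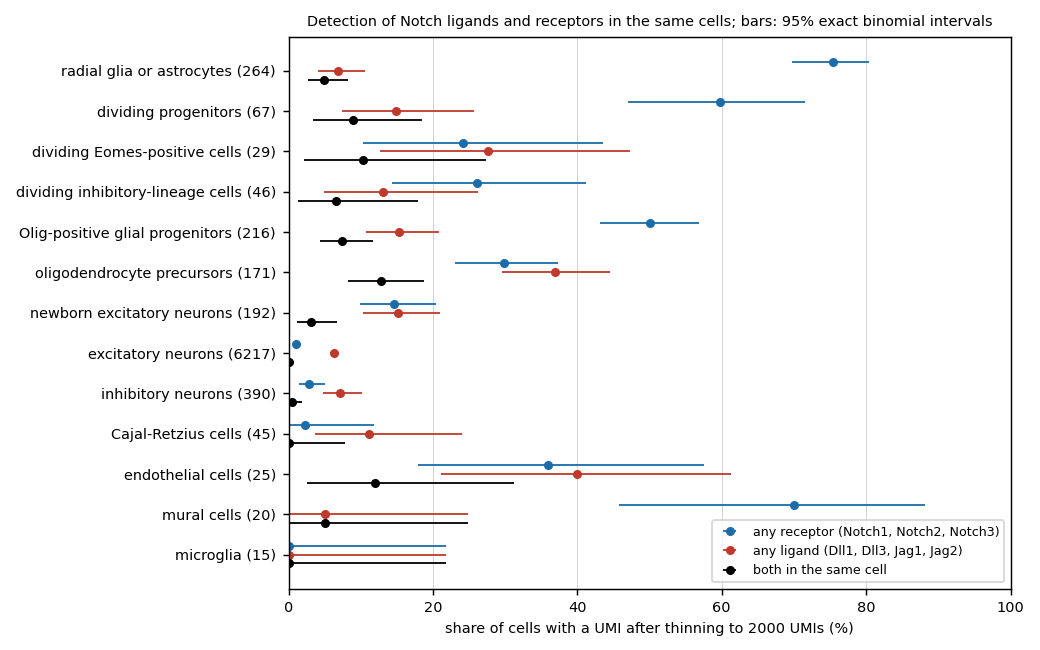
Shares of cells with a UMI of any receptor, of any ligand and of both, in percent, in the 13 classes after thinning to 2000 UMIs. Points are shares, bars are 95% exact binomial intervals and numbers in brackets are cells. The receptor share is highest in radial glia or astrocytes (75.4%), the ligand share in endothelial cells (40.0%), and both together reach 12.9% in oligodendrocyte precursors.

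Cells of 1 class were then split by whether they held a UMI of Dll1 or Dll3. In Olig-positive glial progenitors, the 66 cells with such a UMI and the 150 without were of similar depth (medians of 8831 and 8683 UMIs), and 3.07% of 9741 genes were at least 2-fold higher and 6.80% lower in the first. Hes1 was at 49.9 CPM in the cells with and 217 CPM in those without a ligand UMI, a ratio of 0.230 (0.157 to 0.327). Nrarp, at 0.336 (0.220 to 0.496), and Hey1, at 0.468 (0.227 to 0.888), were lower as well. Hes6, a relative that works against Hes1, was higher, at a ratio of 3.44 (2.81 to 4.22), and Neurog2 had 17 UMIs in the cells with and 1 in those without a ligand UMI. The ligand-positive cells thus had less Hes1, Nrarp and Hey1 and more Hes6. Hes5, at 532 against 1005 CPM, was lower too, but not when cells were split on thinned counts (below). For Nrarp and Hey1 the split on thinned counts was not made. Olig1 and Olig2 were gated before Eomes, so cells with Eomes could enter this class. Eomes stood at 16.0 CPM in it, 3.22 CPM in radial glia or astrocytes, 0.606 CPM in oligodendrocyte precursors and 694 CPM in newborn excitatory neurons. The part of such cells in the split was not tested.

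The members divided in the same way within these 216 cells. Mfng was at 81.2 CPM with and 12.0 CPM without a Dll1 or Dll3 UMI, a ratio of 6.79 (3.90 to 12.5). Lfng was at 59.9 and 136 CPM, a ratio of 0.439 (0.306 to 0.615). Notch2, at 0.392 (0.242 to 0.611), and Notch3, at 0.268 (0.103 to 0.591), were lower with the ligands, while Notch1 was not separated at 0.911 (0.768 to 1.08). For Hes5 the ratio was 0.529 (0.471 to 0.593), but 1.0 when cells were split on thinned counts, whereas Hes1 lay between 0.219 and 0.240 under the alternatives.

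In the 67 dividing progenitors the same directions were seen, from 19 cells with a ligand UMI and 48 without, although the former were deeper (medians of 12148 and 8884 UMIs). Of 6013 genes, 5.09% were at least 2-fold higher and 12.2% lower in the cells with a ligand UMI. Hes6 stood at a ratio of 2.43 (1.70 to 3.49) and Mfng at 4.50 (2.29 to 9.25), against 0.385 (0.285 to 0.513) for Hes5 and 0.185 (0.0658 to 0.422) for Notch2. For Lfng at 0.487 (0.196 to 1.06) and Notch3 at 0.482 (0.0889 to 1.73) the intervals included 1. The split on thinned counts, which moved the Hes5 ratio to 1.0 in Olig-positive glial progenitors, was not made for this class.

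In oligodendrocyte precursors Hes1, Nrarp and Hes6 had ratios closer to 1. With 114 cells holding a Dll1 or Dll3 UMI and 57 without, 2.56% of 9063 genes were at least 2-fold higher and 2.44% lower. Hes6 was at a ratio of 1.56 (1.20 to 2.06), Nrarp at 0.531 (0.342 to 0.828) and Notch1 at 1.14 (0.888 to 1.48). Numbl was lower, at 0.512 (0.277 to 0.958), as were Notch2 at 0.290 (0.0936 to 0.843), from 17 UMIs, and Neurog2 at 0.276 (0.0808 to 0.868), from 6 and 9 UMIs, but the last 2 ratios were 2.54 and 1.81 in the cells not dividing. Hes1 at 0.732 (0.443 to 1.23) and Hes5 at 0.882 (0.685 to 1.14) were not separated, and both ratios were above 1 when the split was made on thinned counts (1.45 and 1.22). The Hes5 ratio was 0.415 in the dividing cells of this class and 1.65 in the others, so no direction is given for it. In newborn excitatory neurons (71 and 121 cells), where 2.41% of 8748 genes were at least 2-fold higher and 2.06% lower with a ligand UMI, Hes5 was 3.95-fold higher (2.28 to 7.14) and Mfng had a ratio of 0.781 (0.585 to 1.04), but on thinned counts the ratios were 0.522 for Hes5 and 1.69 for Mfng, so no direction is given for either there. Neurog2 was higher in the newborn neurons with a ligand UMI, at 283 against 94.2 CPM (ratio 3.01, 2.33 to 3.91), as were Notch1 at 1.68 (1.18 to 2.39) and Hes6 at 1.41 (1.16 to 1.70), and on thinned counts these ratios were 2.22, 2.19 and 1.72.

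**Figure D4:**
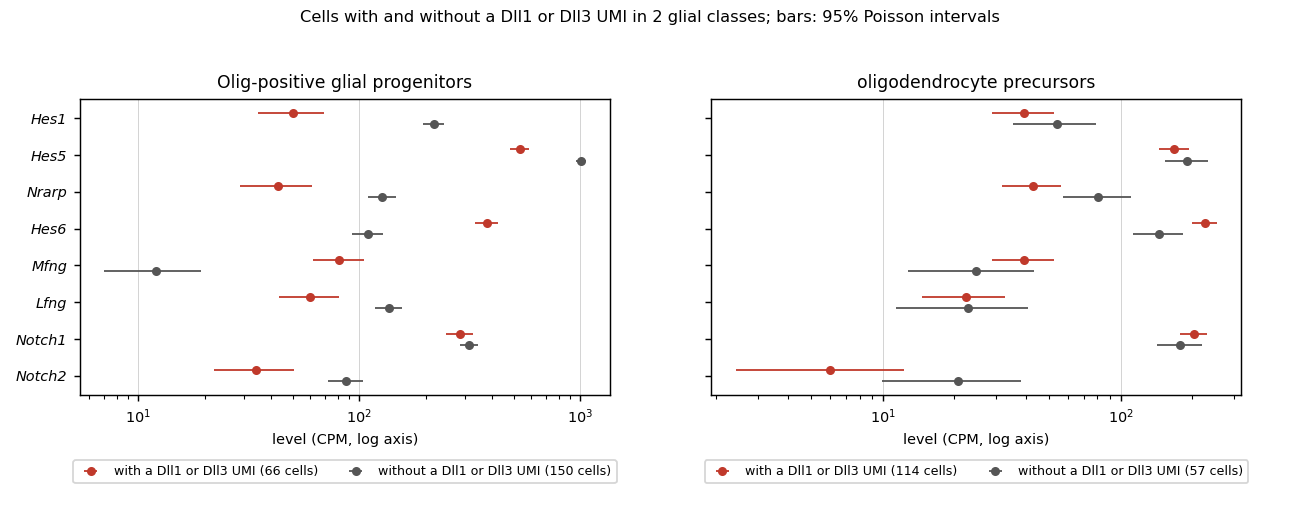
Levels (CPM, log axis) of 8 genes in cells with and without a Dll1 or Dll3 UMI, in Olig-positive glial progenitors (left) and oligodendrocyte precursors (right). Points are summed levels and bars 95% Poisson intervals. On the left Hes1 and Lfng lie lower and Hes6 and Mfng higher in cells with a ligand UMI (Mfng at 81.2 against 12.0 CPM); on the right Hes1, Hes5, Lfng, Hes6 and Mfng lie closer together, while Notch2, from 17 UMIs, does not.

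The members were finally placed by their likeness over the 13 classes, as Pearson correlations of log2(CPM + 10), which share 1 library and differ in depth and are given as a description only. Among the members, Notch2 and Lfng were the most alike (r = 0.87), followed by Notch3 and Jag1 (r = 0.82) and Dll1 and Dll3 (r = 0.81). Over 7631 genes with at least 50 CPM in a class, the genes most like Notch1 were Vim (r = 0.972), Nes (r = 0.962) and Mmp14 (r = 0.960), the first 2 being intermediate filament genes of progenitors. Those most like Notch3 were Pdgfrb (r = 0.976), Hey2 and C1qtnf6, and those most like Notch2 were Pla2g7, C030005K06Rik and Cybrd1. For Dll1 they were Smoc1, a gene of oligodendrocyte precursors, Fip1l1 and Ankrd11 (r from 0.888 to 0.925), and for Dll3 they were Gas2, Orc2 and Hipk2 (r from 0.881 to 0.891). Jag1 was most like Id3, Yap1 and Sp1, Jag2 like Dock9, Ppp1r13b and Spns2, and Numb like Ltbr, Tcn2 and Sparc. Lfng was most like Mlc1, Psph and Qk, and Mfng like Psmb2, Ppp4c and Mrpl2, with r no higher than 0.881 for Mfng.

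Several members share bases with another gene. In GENCODE M21, exons of Notch1 are overlapped on the opposite strand by 0610009E02Rik and Gm13568, those of Notch3 by Gm17276, those of Dll1 by A930024N18Rik and those of Numb by Gm46367, and those of Notch2 on the same strand by Gm42820. As the strand setting of the counting is not given in the sources used here, UMIs of these overlapping genes could not be told apart.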

How the data were processed

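sc-RNA Seq of 1 WT P0 cerebral cortex library was analysed. The authors deposited raw UMI counts per gene and cell, without normalization, and totals of UMI counts and detected genes per cell. Per the submitters' processing notes, STAR, Cell Ranger 2 and Seurat and the build mm9 were used; the annotation and the strand setting are not given in the sources used here. RefSeq promoters came from GRCm38.p6, and no coordinates of the count table are given.

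The members and gene lists were chosen with earlier results of these data known. Cells with at least 2000 UMIs and under 10% mitochondrial UMIs were kept. A marker list was met with UMIs of at least 3 of its genes and 5 UMIs in all (3 genes for dividing, vascular, microglial and Cajal-Retzius lists). Cells were assigned in the order endothelial, mural, microglia, Cajal-Retzius, then Olig1 and Olig2 with at least 2 UMIs (with or without Pdgfra), dividing, Eomes with at least 2 UMIs, and then whichever of the radial glia or astrocyte, excitatory or inhibitory lists reached 2 times the next. Layers were split by 3 UMIs and 2 times the other list.

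UMIs were summed per class. With 1 library there was no test, p-value or standard error; Poisson, exact binomial and conditional ratio intervals cover counting error only. A gene was compared with at least 20 UMIs in both classes together and counted at 2-fold. Genes named were the 10 members, 44 listed pathway genes (1 more listed gene is not reported here) and, per member, the 3 most correlated genes. Python 3.11.15, numpy 2.4.6, scipy 1.17.1 and Scrublet in scanpy 1.11.5 (expected doublets 6%) were used, and fold calls were tested on simulated data. Alternatives were a minimum of 4000 UMIs, no mitochondrial limit, stricter lists, doublets removed, a radial glia list without Slc1a3 and Fabp7, mean single-cell CPM, mitochondrial genes in the total, other thinning, 1.5-fold, and no filter on low counts.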

Additional observations from a re-analysis of the deposited data

Results flagged for a closer look

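The 2808 cells left out for fewer than 2000 UMIs or at least 10% mitochondrial UMIs were given no class, although they count in the levels of the whole library and some enter the alternative with no mitochondrial limit, and 3 ligands stood higher in them than in the kept cells. Jag2 was at 73.1 CPM (63.9 to 83.2) against 21.3 CPM in the kept cells, Dll1 at 12.2 CPM (8.62 to 16.7) against 6.70 CPM, and Jag1 at 6.73 CPM (4.17 to 10.3) against 3.44 CPM. For Jag2 the level was 28.6 CPM in the 588 cells left out for few UMIs only, 68.5 CPM in the 378 with a high mitochondrial share only and 95.6 CPM in the 1842 with both. The cells with both held a median of 997 UMIs. Over all cells left out, the intervals of the other members were not above those in kept cells, but in the cells with few UMIs only Notch2 was at 42.1 CPM, from 28 UMIs, against 13.3 CPM (12.5 to 14.1) in kept cells.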

How the results depend on the processing

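No paired analysis was possible because the data analysed hold 1 WT library, which also left no replicate to leave out. Of 90 recomputed counts of members past 2-fold, 86 stayed within 1.5 times of the value reported, as did 344 of 350 member ratios within their counting intervals. Members lower in newborn than in excitatory neurons numbered 1 in place of 0 without doublets, with the mean CPM of single cells and at 1.5-fold. Members lower in oligodendrocyte precursors than in radial glia or astrocytes numbered 6 in place of 3 at 1.5-fold. The 6 ratios that left their intervals were, against excitatory neurons, Jag2 in radial glia or astrocytes (0.0494 without doublets), Mfng in dividing progenitors (21.9 without Slc1a3 and Fabp7) and in newborn neurons (93.3 without doublets), and, with the mean CPM of single cells, Notch2 in radial glia or astrocytes (134), Notch2 in dividing progenitors (43.7) and Mfng in newborn neurons (57.9). The cause of these shifts was not tested.

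Shares of cells with a ligand and a receptor UMI depend on the number of UMIs kept. At 1000 UMIs they were 1.89% in radial glia or astrocytes, 2.78% in Olig-positive glial progenitors, 2.34% in oligodendrocyte precursors, 0.521% in newborn neurons and 0.0161% in excitatory neurons, and 4.48% in dividing progenitors, so that the order of the glial classes was not kept. Without thinning they were 20.1%, 40.3%, 55.6%, 23.4% and 1.69% in the same order, 49.3% in dividing progenitors and 3.08% in inhibitory neurons.

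The alternatives to the split by Dll1 or Dll3 UMIs and the added class pairs were chosen after seeing the data. Of 148 such values 132 kept within their interval, 12 shifted and 4, each of a ratio past 2-fold, turned direction. Ratios within 2-fold that crossed 1, such as that of Mfng below, were not counted as turned. In oligodendrocyte precursors the Notch2 ratio, from 17 UMIs, was 0.290 and became 1.05 on thinned counts and 2.54 in cells not dividing, where Neurog2, from 0.276, became 1.81. In newborn neurons, on thinned counts, Hes5 became 0.522 and Mfng, from 0.781, 1.69. In Olig-positive glial progenitors Hes5 became 1.0 on thinned counts. Classes of few cells, such as the 15 microglia, limit precision: 3 UMIs are 25.4 CPM there and 0.0451 CPM in excitatory neurons.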
